A study of Arabidopsis thaliana with 12 samples.

Results

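The transcripts of 9 Arabidopsis thaliana genes that decide between flower and inflorescence fate were followed through synchronised flower development: AP1 (AT1G69120), CAL (AT1G26310), FUL (AT5G60910), LFY (AT5G61850), UFO (AT1G30950), LMI2 (AT3G61250), TFL1 (AT5G03840), FD (AT4G35900) and FDP (AT2G17770). They were chosen by locus identifier, and all 9 were among the 20907 genes that could be tested out of 28327 on the array. Inflorescences were sampled at day 0 and at days 2, 4 and 8 after the first application of dexamethasone (DEX, 2 µM, applied daily). Every plant, the day 0 plants included, carried the ap1-1 and cal-1 mutations and the pAP1:AP1-GR transgene, in which the AP1 promoter drives AP1 fused to the hormone-binding domain of a glucocorticoid receptor, so that DEX releases AP1 into the nucleus. The labels describe day 0 as collected ahead of induction, and the methods add that this tissue had just received a mock solution. No mock-treated tissue of days 2, 4 or 8 was analysed here, so DEX, age and repeated handling cannot be told apart. Each RNA extract pooled inflorescences of many plants, and in such bulk tissue fewer cells of a type and less RNA per cell cannot be told apart.

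Flowers arise on the flanks of the inflorescence meristem. LFY and the MADS-domain factors AP1 and CAL give the new primordia floral identity, whereas TFL1 keeps the meristem itself indeterminate. FT and TFL1, related proteins with opposite effects on flowering, both act with the bZIP factor FD, and AP1 is among the genes that the FT and FD complex activates. Without AP1 and CAL the primordia keep producing further meristems in place of flowers, which gives the cauliflower-like heads from which these samples start.

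Transcript levels were read on 12 custom Agilent arrays with 2 colours, 1 for each of 4 replicate sets and each of 3 steps (day 2 over day 0, day 4 over day 2 and day 8 over day 4). RNA of the later day carried Cy5 in sets 1 and 3 and Cy3 in sets 2 and 4. Values are log2 ratios of the later over the earlier day, so 1 is a 2-fold increase, and they are given in the order of sets 1 to 4. A gene was called when its brightest probe passed a Benjamini-Hochberg adjusted p of 0.05 in limma and changed at least 1.8-fold. All 24 probes of the 9 genes were marked well above background in all 20 channels whose scanner marks could be used, and none was saturated. The median change over all tested genes was -0.10 for day 2 over day 0, 0.06 for day 4 over day 2, -0.08 for day 8 over day 4 and -0.11 for day 8 over day 0, and the changes below are not corrected for it. The scanner files of sets 3 and 4 of day 2 over day 0 did not match the deposited ratios, which were used for all arrays.

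Each of the 9 genes changed over the series, with an adjusted p below 0.05 in the moderated F test of limma, as did 75.9% of all tested genes. Between day 0 and day 2, LFY rose about 2-fold and FD fell 2.51-fold, and the other 7 genes were not called. Here 13.9% of all genes were called, 8.47% as higher and 5.42% as lower. By adjusted p alone 7 of the 9 passed, against 49.8% of all genes. From day 2 to day 4 none of the 9 was called, against 8.82% of all genes; the limma test gave 3 of them an unadjusted p under 0.05 and 2 an adjusted p under 0.05 (28.1% of all genes), and none was called under any alternative setting. Between day 4 and day 8, CAL, LFY, UFO, FD and FDP were called lower, 5 of 9 genes, while 17.5% of all genes were called, 5.23% as lower and 12.3% as higher. By adjusted p alone 8 of the 9 passed, against 58.6% of all genes. All 9 estimates were below 0 in this last interval, although that of TFL1 was near 0 and turned to 0.06 with array medians at 0 and to 0.04 with normexp and loess from the scanner files. The last interval spans 4 days and the others 2 days each.

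**Figure D1:**
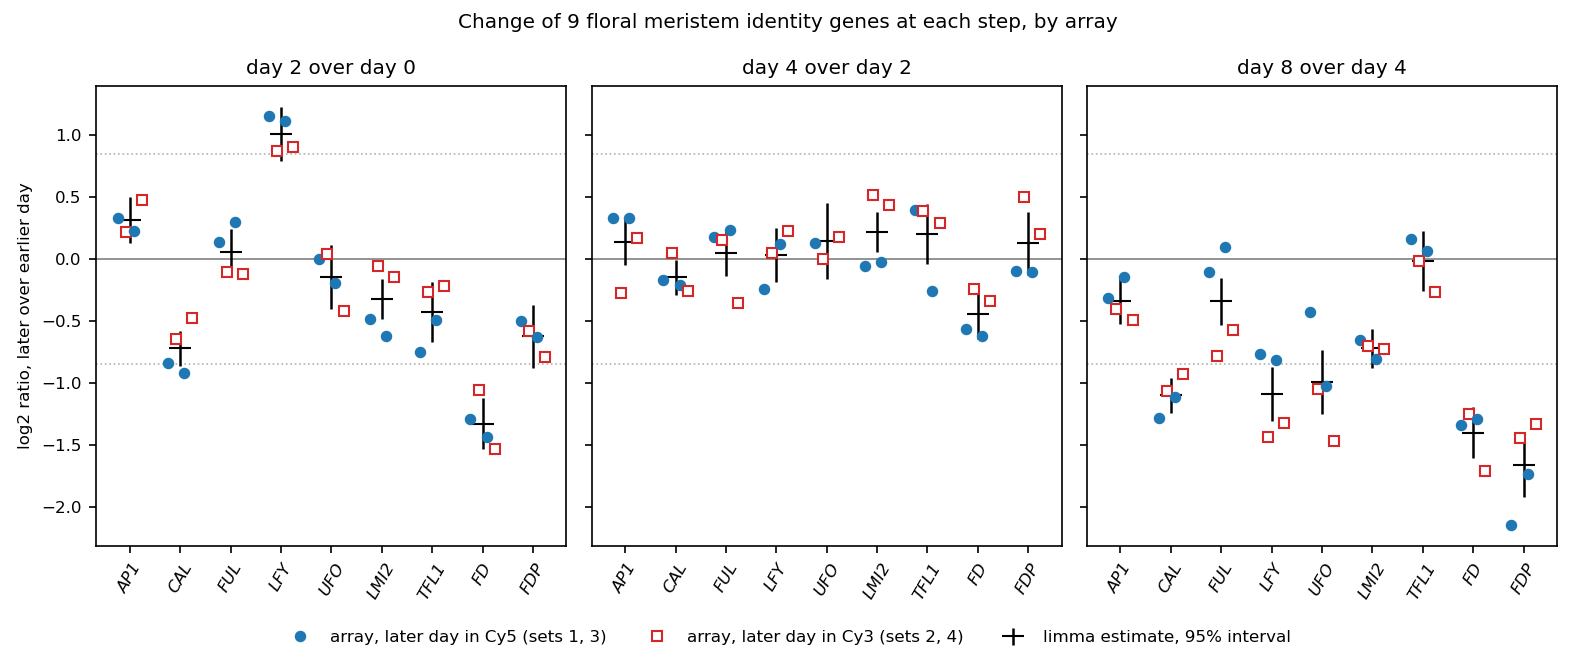
The log2 ratio of the later over the earlier day for each gene on each array, in 3 panels for the 3 steps, with filled circles for arrays with the later day in Cy5, open squares for arrays with the later day in Cy3, bars for the limma estimate and its 95% interval, and dotted lines at a change of 1.8-fold. LFY lies between 0.87 and 1.15 at day 2 over day 0 and between -1.43 and -0.77 at day 8 over day 4, and FD lies below 0 on all 12 arrays.

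The call of LFY as higher and of FD as lower at day 2 held when each set was left out in turn, with LFY at 0.998 to 1.03 and FD at -1.43 to -1.22, and with normexp and loess on the 10 files that matched (1.00 and -1.11). It did not hold when the 2 files that disagree with the deposited ratios were used as they are (0.35 with adjusted p = 0.331, and -0.60 with adjusted p = 0.0758).

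AP1, the MADS-domain factor whose activation starts the programme, changed little at the transcript level. Its ratios of day 2 over day 0 were 0.33, 0.21, 0.22 and 0.48, an estimate of 0.31 ± 0.09 (SE, n = 4, adjusted p = 0.00957). All 4 sets were higher at day 2, by 1.24-fold on average, which is under the fold minimum. The dimmest of the 3 AP1 probes gave a smaller estimate, 0.14 (adjusted p = 0.172). By the brightest probe, day 4 over day 2 gave 0.33, -0.27, 0.33 and 0.17, with sets on either side of 0 and an adjusted p of 0.256. Day 8 over day 4 gave -0.32, -0.41, -0.14 and -0.49, lower in every set (-0.34 ± 0.09, SE, n = 4, adjusted p = 0.00465), again under 1.8-fold. The AP1 signal may include RNA of the transgene, and which of the probes also match it was not examined.

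CAL, the closest relative of AP1 and redundant with it in floral meristem identity, was lower in both outer intervals, here as transcript of the cal-1 allele. The ratios of day 2 over day 0 were -0.83, -0.65, -0.92 and -0.48 (-0.72 ± 0.07, SE, n = 4, adjusted p = 2.54e-06), a 1.65-fold decrease that stayed under the fold minimum. Day 4 over day 2 was close to 0, at -0.17, 0.05, -0.21 and -0.26 (adjusted p = 0.114). Day 8 over day 4 gave -1.28, -1.06, -1.11 and -0.93, which made CAL 2.14-fold lower (-1.10 ± 0.07, SE, n = 4, adjusted p = 1.18e-07). No set lay above 0 in either outer interval, and every set lay beyond 1.8-fold in the last one.

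FUL, a further relative of AP1 that also acts in the inflorescence meristem and later in the fruit, was not called in any comparison. It gave 0.14, -0.10, 0.30 and -0.12 at day 2 over day 0 and 0.17, 0.15, 0.23 and -0.35 at day 4 over day 2, with both signs each time. At day 8 over day 4 the ratios were -0.11, -0.78, 0.10 and -0.58 (-0.34 ± 0.09, SE, n = 4, adjusted p = 0.00483). On this brightest probe the arrays with the later day in Cy3 carried the decrease, and the dye term of FUL had an adjusted p of 0.0182. For 11.6% of all genes, and for 2 of the 9, that term passed an adjusted p of 0.05. The third FUL probe split in the same way. The second gave -0.47, -0.57, -0.02 and -0.37 and the fourth -0.45, -0.65, 0.18 and -0.28, without that split. For day 8 over day 0 the brightest probe gave 0.20, -0.74, 0.63 and -1.05, split by dye, with set 4 beyond a 1.8-fold decrease. Its estimate was -0.24 ± 0.15 (SE, adjusted p = 0.206). The second probe was below 0 in every set there (-0.49, -0.26, -0.03 and -0.31).

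The 3 related MADS genes were also set against each other within the arrays, a comparison added after their values had been seen. CAL minus AP1 was -1.03 ± 0.15 (SD, n = 4) at day 2 over day 0, with -1.16 to -0.86 over the sets, and -0.76 ± 0.26 (SD, n = 4) at day 8 over day 4. CAL lay below AP1 on all 8 of these arrays. FUL minus AP1 was -0.26 ± 0.28 and -0.0023 ± 0.29 (SD, n = 4) in the same intervals, with both signs among the sets. With 4 sets the exact two-sided permutation test cannot go below p = 0.125, the value it gave for CAL minus AP1 in both intervals (0.25 after adjustment over the 12 differences of related genes computed).

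LFY, the transcription factor that acts with AP1 at the start of a flower and switches on the floral organ identity genes, gave the one called increase. Its ratios of day 2 over day 0 were 1.15, 0.87, 1.11 and 0.90, so that every set was above 1.8-fold (1.01 ± 0.10, SE, n = 4, adjusted p = 5.45e-06). The median processed signal of its brightest probe was 9263 at day 0, 19430 at day 2, 20560 at day 4 and 8586 at day 8. These medians rest on 2, 6, 8 and 4 usable channels. Day 4 over day 2 held values on both sides of 0 (-0.24, 0.05, 0.12 and 0.23, adjusted p = 0.843). Day 8 over day 4 gave -0.77, -1.43, -0.81 and -1.32, a 2.12-fold decrease (-1.08 ± 0.10, SE, n = 4, adjusted p = 2.61e-06). The sets with the later day in Cy3 were lowest there, and no set was above 0. The net change at day 8 over day 0 was -0.04 ± 0.17 (SE, adjusted p = 0.86), with a 95% interval of -0.42 to 0.33, and the sets lay on both sides of 0 (0.13, -0.52, 0.41 and -0.19).

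UFO encodes an F-box protein that works with LFY on the petal and stamen identity genes. Day 2 over day 0 gave -0.0021, 0.04, -0.19 and -0.42, close to 0 in sets 1 and 2 and below it in sets 3 and 4 (adjusted p = 0.337). Day 4 over day 2 gave 0.13, -0.0044 and 0.18 in sets 1, 2 and 4, and the spot of set 3 was left out because the scanner software marked it as an outlier (0.26 if kept). Between day 4 and day 8 UFO fell 1.99-fold, with -0.42, -1.04, -1.03 and -1.46 (-0.99 ± 0.12, SE, n = 4, adjusted p = 3.28e-05). Set 1 was the highest and alone lay within 1.8-fold. The decrease remained below 0 but missed the fold minimum in sets 1 and 2 alone, the arrays of 1 slide (-0.73), and with normexp and loess (-0.84).

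LMI2 (MYB17), a MYB factor and direct LFY target that promotes AP1 expression, was lower in both outer intervals and higher in the middle one, each time under the fold minimum. The ratios of day 2 over day 0 were -0.48, -0.05, -0.62 and -0.15 (-0.33 ± 0.07, SE, n = 4, adjusted p = 0.00316). Day 4 over day 2 split by dye, with -0.06 and -0.03 in sets 1 and 3 and 0.51 and 0.43 in sets 2 and 4 (0.22 ± 0.07, SE, n = 4, adjusted p = 0.0465), and the dye term of LMI2 had an adjusted p of 0.0303. The values of day 8 over day 4 were -0.65, -0.70, -0.81 and -0.72, the least spread among the 9 genes in any step (SD 0.065). Its estimate there was -0.72 ± 0.07 (SE, n = 4, adjusted p = 5.93e-06), or 1.65-fold lower.

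TFL1, which opposes LFY and AP1 and keeps the shoot apex from becoming a flower, was not called in any comparison. Day 2 over day 0 gave -0.75, -0.26, -0.49 and -0.22, lower in all 4 sets (-0.43 ± 0.11, SE, n = 4, adjusted p = 0.0068) and 1.35-fold on average. With 0.39, 0.39, -0.26 and 0.29 at day 4 over day 2 the mean turned positive (adjusted p = 0.204), and set 3 alone was negative. Day 8 over day 4 lay around 0 (0.16, -0.02, 0.06 and -0.27, adjusted p = 0.916). Across the whole course the sets gave -0.20, 0.11, -0.68 and -0.20, an estimate of -0.24 ± 0.19 (SE) with a 95% interval of -0.66 to 0.17, and none lay beyond 1.8-fold.

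FD, the bZIP factor through which FT and TFL1 reach their target genes, showed the largest decline of the 9. It fell 2.51-fold by day 2, with -1.29, -1.05, -1.43 and -1.53 (-1.33 ± 0.09, SE, n = 4, adjusted p = 2.92e-07). It was lower again in every set at day 4 over day 2, at -0.57, -0.25, -0.62 and -0.34 (-0.44 ± 0.09, SE, n = 4, adjusted p = 0.00359), a step under the fold minimum. At day 8 over day 4 it fell a further 2.64-fold, with -1.34, -1.25, -1.29 and -1.71 (-1.40 ± 0.09, SE, n = 4, adjusted p = 2.54e-07). FD was thus below 0 on all 12 arrays. The median processed signal of its brightest probe was 67090, 31660, 23140 and 9335 at days 0, 2, 4 and 8 (2, 6, 8 and 4 usable channels).

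FDP, the paralog of FD, was lower in the same outer intervals with another balance between them. At day 2 over day 0 it gave -0.50, -0.58, -0.63 and -0.79, below 0 in every set but under 1.8-fold (-0.62 ± 0.12, SE, n = 4, adjusted p = 0.000872). Day 4 over day 2 had both signs (-0.10, 0.50, -0.11 and 0.20, adjusted p = 0.478). At day 8 over day 4 it fell 3.16-fold, with -2.14, -1.44, -1.73 and -1.33 (-1.66 ± 0.12, SE, n = 4, adjusted p = 3.52e-07). With normexp and loess this change was -0.93, still called but smaller than that of FD (-1.33). FDP minus FD, compared within the arrays, was 0.70 ± 0.15, 0.57 ± 0.12 and -0.26 ± 0.50 (SD, n = 4) over the 3 steps. FDP lay above FD in all 4 sets at day 2 over day 0 and on either side of it at day 8 over day 4, with exact two-sided permutation p-values of 0.125, the smallest possible, and 0.375 (0.25 and 0.45 adjusted).

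Summed over the steps, the genes ended at day 8 on different levels relative to day 0, and 4 of the 9 were called lower at day 8 over day 0, where 26.1% of all genes were called, 11.2% as lower and 14.9% as higher. By adjusted p alone 5 of the 9 passed, against 50.7% of all genes. FD was 8.98-fold lower (-3.20, -2.55, -3.34 and -3.58; estimate -3.17 ± 0.16, SE, adjusted p = 6.14e-08). FDP was 4.47-fold lower, with -2.74, -1.52, -2.46 and -1.91 (adjusted p = 4.52e-06), though its change was smaller with normexp and loess (-1.26 with the 10 matching files and -1.11 with all 12) and still called. CAL was 3.90-fold lower, with -2.29, -1.66, -2.24 and -1.66 (adjusted p = 1.26e-07). All sets of these 3 genes lay beyond 1.8-fold. UFO was 1.99-fold lower (-0.99 ± 0.22, SE, adjusted p = 0.00295), with -0.30, -1.01 and -1.71 in sets 1, 2 and 4, and it was no longer called without set 3 or with the steps summed per set, which also leaves set 3 out (-0.83 each), or with normexp and loess (-0.69, adjusted p = 0.0675). LMI2 was 1.78-fold lower (-0.83 ± 0.13, SE, adjusted p = 0.000205), just short of the fold minimum, and passed it without set 1 (-0.90) or set 2 (-0.88) and as the mean of its probes (-0.86). AP1 (0.11), FUL (-0.24), LFY (-0.04) and TFL1 (-0.24) had adjusted p-values between 0.206 and 0.86. In order from the lowest, the interval of FD (-3.52 to -2.81) lay clear of all others, the intervals of FDP (-2.60 to -1.72) and CAL (-2.21 to -1.72) overlapped, and those of UFO (-1.47 to -0.51) and LMI2 (-1.11 to -0.55) did as well.

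By day 4 the picture was that of LFY against FD and CAL. LFY was 2.06-fold higher at day 4 over day 0 (0.90, 0.91, 1.23 and 1.13, adjusted p = 0.000221), FD 3.41-fold lower (-1.86, -1.30, -2.05 and -1.87, adjusted p = 2.6e-06) and CAL 1.82-fold lower (-1.13 to -0.60 over the sets, adjusted p = 3.58e-05), each with 1 sign in all 4 sets. These 3 of 9 genes compare with 10.1% of all genes called at day 4 over day 0, 6.60% as higher and 3.54% as lower, and 5 of the 9 passed by adjusted p alone, as did 22.3% of all genes. CAL sat at the fold minimum and was no longer called without set 4 (-0.84) or with array medians at 0 (-0.82). With the 12 scanner files as they are, none of these 3 calls held (0.35 for LFY, -1.06 for FD and -0.61 for CAL). AP1 was 1.37-fold higher, with 0.66, -0.06, 0.56 and 0.65 (adjusted p = 0.0177), and set 2 alone lay below 0. Its dimmest probe gave 0.22 (adjusted p = 0.193).

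**Figure D2:**
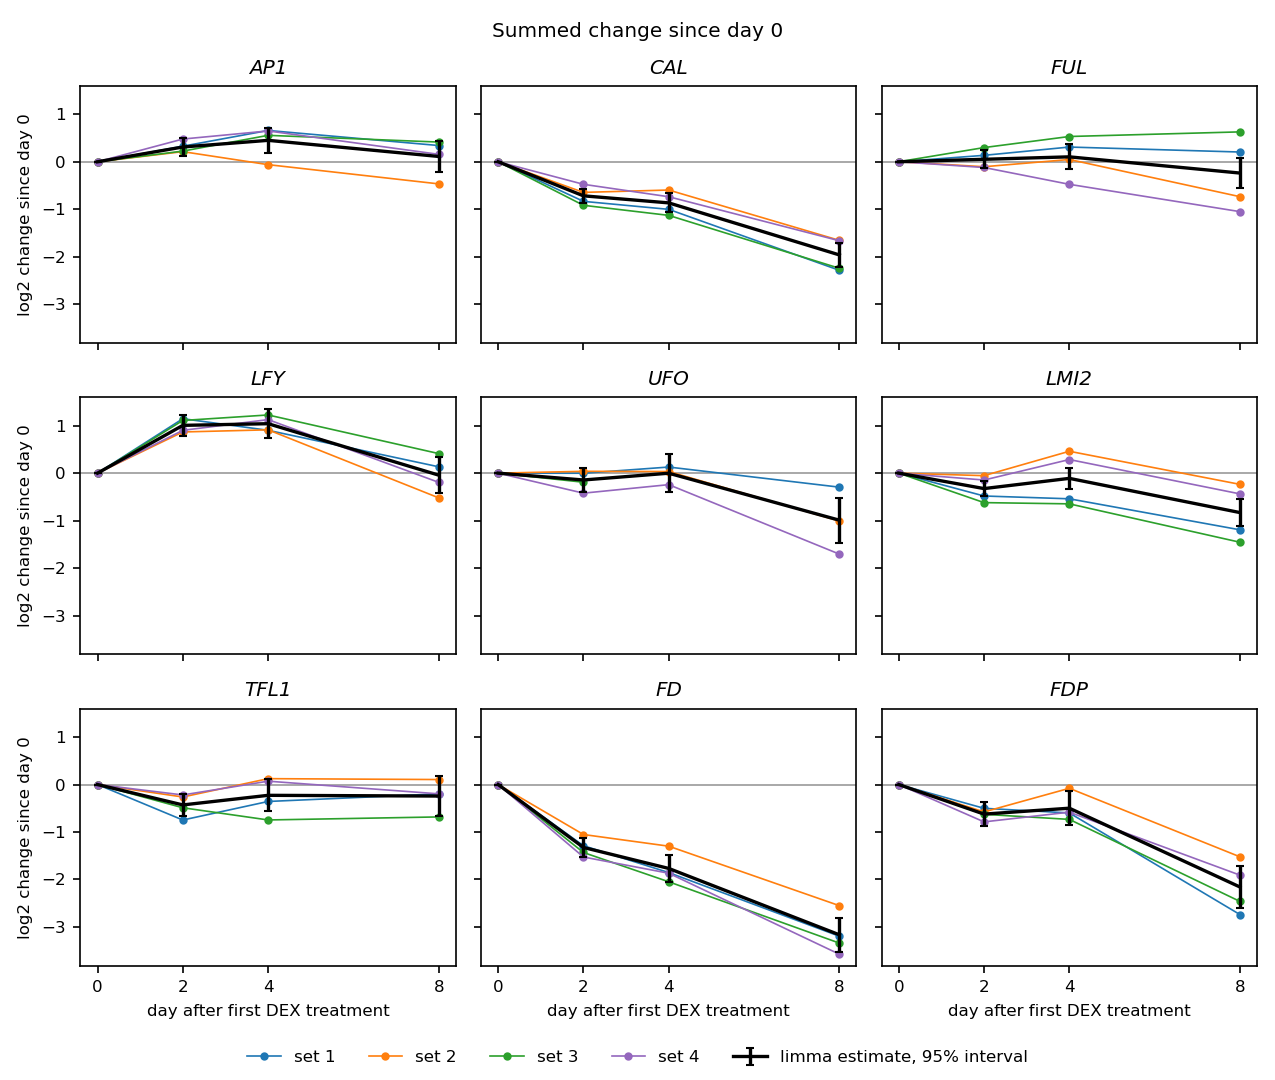
Summed log2 change since day 0 (vertical axis) against the day after the first DEX treatment (horizontal axis) for each of the 9 genes, with a thin line for each replicate set and a black line for the limma estimate with its 95% interval. LFY is up at days 2 and 4 and back near 0 at day 8, FD declines throughout to -3.17, and the UFO line of set 3 stops at day 2 because the spot of its next step was left out.

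The change at day 8 over day 4 was set against that at day 2 over day 0, which share no RNA extract, by a contrast added after the values had been seen. For LFY the difference was -2.09 ± 0.14 (SE, adjusted p = 5.38e-07), with every set up in the earlier interval and down in the later one. AP1 had the same 2 signs in every set at a smaller scale (-0.65 ± 0.12, SE, adjusted p = 0.00105). FDP (-1.04, adjusted p = 0.000354) and UFO (-0.85, adjusted p = 0.00203) also had lower ratios in the later interval. For FD the intervals did not differ beyond their error (-0.07 ± 0.13, SE, adjusted p = 0.701). In all, 7 of the 9 genes had an adjusted p below 0.05 for this difference, against 40.0% of all genes.

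The 9 genes carried 24 probes, which gave a second reading of all of them but UFO and TFL1. The 3 probes of LFY gave 0.95 to 1.01 at day 2 over day 0 and -1.14 to -1.08 at day 8 over day 4, and all 3 were called in both. The 3 probes of FD ran from -1.36 to -1.29 and from -1.55 to -1.40 in these intervals and were likewise all called. CAL was called by its 3 probes at day 8 over day 4, with -1.29 to -1.10. For FDP the dimmest of 3 probes, with processed signals of 34.58 to 154.8, gave -0.84 at day 8 over day 4 and was not called, whereas the others were. At day 8 over day 0 the brightest probe of LMI2 missed the fold minimum and its other probes passed it, down to -0.89. The AP1 and FUL probes were not called in any comparison. At day 8 over day 0 the AP1 probes differed in sign, from -0.23 for the dimmest to 0.11 for the brightest.

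**Figure D3:**
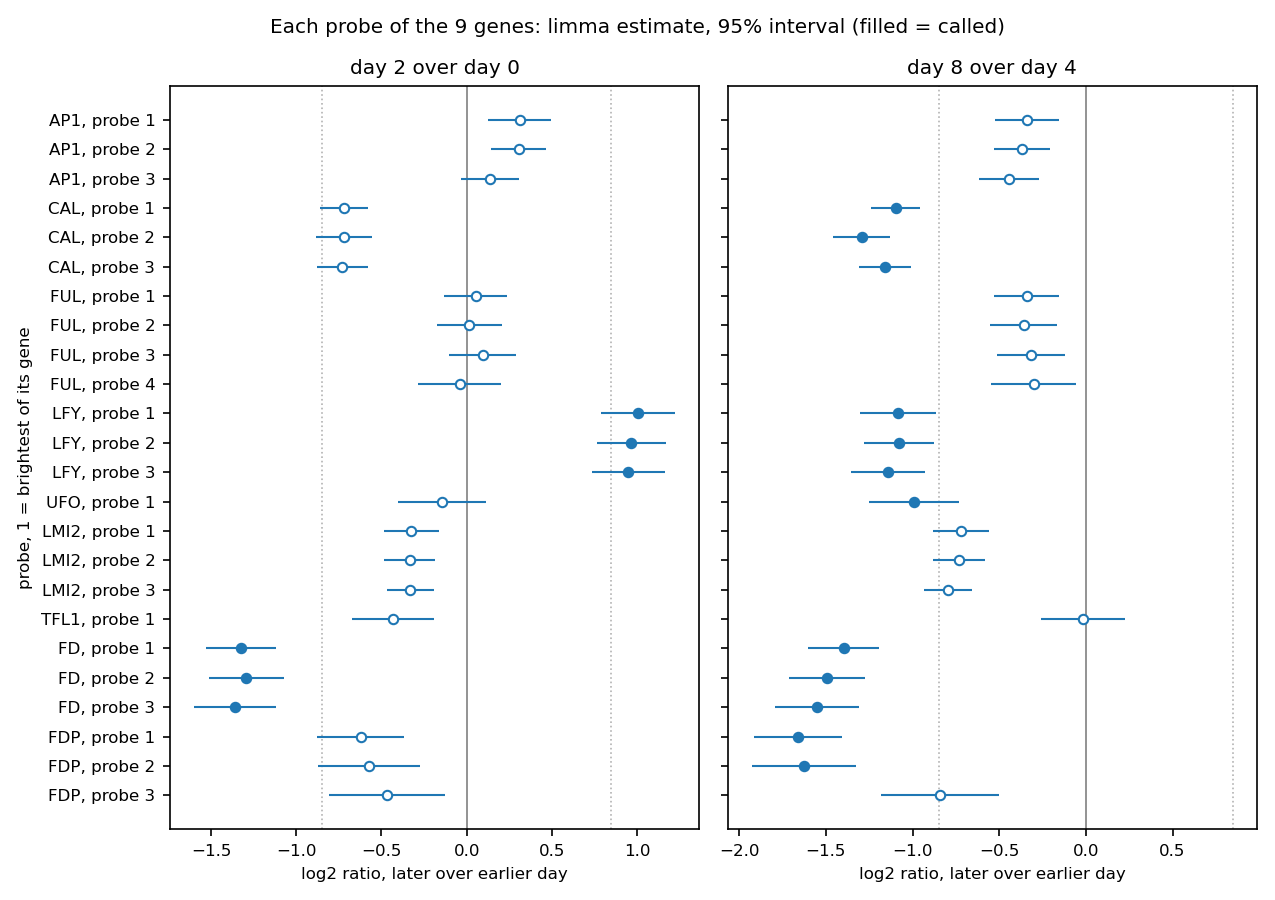
The limma estimate of the log2 ratio with its 95% interval (horizontal axes) for each of the 24 probes, ordered by gene and then by brightness, at day 2 over day 0 and at day 8 over day 4, with filled points for called probes and dotted lines at a change of 1.8-fold. The 3 LFY probes sit together at 0.95 to 1.01 at day 2 over day 0, and the third FDP probe, at -0.84, is the one that departs from its gene at day 8 over day 4.

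Around these 9 genes, 39 further genes of the flowering and floral pathway were examined, of which 37 could be tested. At day 2 over day 0, 8 of the 37 were called higher and 11 lower, at day 4 over day 2, 6 higher and 2 lower, and at day 8 over day 4, 8 higher and 7 lower. The background for genes called higher was 8.47%, 3.23% and 12.3% in these steps, and for lower 5.42%, 5.59% and 5.23%.

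Of the 7 floral MADS genes downstream of LFY and AP1, 6 were called higher at day 2 over day 0, with a median of 1.31 over the 7, against -0.10 over all genes. By brightest probe, AP3, needed for petals and stamens, led with 5.41 ± 0.12 (SE, n = 4, adjusted p = 4.49e-11). SEP3, a cofactor of all floral organ identity factors (3.19 ± 0.10), and AG, the stamen and carpel gene (2.88 ± 0.10), followed. The size of the AP3 change differed between its probes. From day 0 (2 usable channels) to day 2 (6) the median processed signal of the brightest went from 513.2 to 17140. The other AP3 probes went from 1453 to 8831 and from 783.9 to 8461, and the brightest SEP3 probe from 726.8 to 7433. PI, SEP1 and SEP2 were called higher by less, and SEP4 was not called in any step (0.15 at day 2 over day 0, and -0.58 with adjusted p = 6.99e-05 at day 8 over day 4). AP3, AG, SEP1, SEP2 and SEP3 were called higher again at day 4 over day 2 (SEP1, at 0.87, not with array medians at 0, 0.82, or with normexp and loess, 0.78), and SEP2 and SEP3 at day 8 over day 4 (0.91 and 0.90), the interval in which LFY and UFO fell.

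Genes upstream of the floral meristem identity genes moved the other way by day 2. Of 9 tested, 6 were called lower at day 2 over day 0 and none higher, with a median of -0.96: FT, the mobile flowering signal (-1.27 ± 0.24, SE, n = 4), the MADS gene AGL24 (-0.96 ± 0.06), and the SBP-box genes SPL3 (-0.93), SPL5 (-1.17), SPL9 (-1.42) and SPL15 (-1.74), all targets of miR156. The signal of the FT probe was low, with 5 of 6 day 2 channels well above background, and FT was not called with normexp and loess (-0.51), nor were AGL24 (-0.84) there or SPL3 with array medians at 0 (-0.84). At day 8 over day 4, FT (-1.01, though -0.25 and not called with normexp and loess), AGL24 (-1.36) and SVP (-1.38) were called lower, and SPL5 was called higher (1.05). SVP and AGL24, which AP1 is known to repress, thus ended 6.81-fold and 6.31-fold lower at day 8 over day 0.

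Of 11 co-regulators, 3 were called lower at day 2 over day 0 and none higher. LMI1, a homeodomain gene that LFY activates directly, was lower at day 2 over day 0 in all 4 sets while LFY rose (-1.44, -1.59, -1.62 and -1.78, adjusted p = 1.7e-07), and it was higher at day 4 over day 2 (1.30, adjusted p = 3.43e-06). PUCHI, an AP2/ERF gene that helps to set up floral meristem identity, fell in both outer intervals (-1.53 and -3.18), to 44.8-fold below day 0 at day 8. BOP1, which acts with PUCHI, was called at day 2 over day 0 (-0.91), but not with array medians at 0 (-0.82) or with normexp and loess (-0.69). At day 8 over day 4 the homeodomain gene PNF (-0.93), AIL6 (-1.12) and ETT (-0.94) were called lower alongside PUCHI, but with normexp and loess PNF (-0.80) and AIL6 (-0.68) were not called, nor was PNF with array medians at 0 (-0.85). AGL14 was called higher there (1.68), but not with normexp and loess (0.31), and its probe was well above background in no channel of days 0 and 2, in 1 of 8 at day 4 and in 4 of 4 at day 8.

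Of the 8 AP2-type and RAV genes, several of which repress flowering, the RAV genes TEM1 and TEM2 followed an up, down and up course. TEM2 gave 6.98, -3.26 and 2.15 and TEM1 gave 1.92, -1.30 and 1.03 over the 3 steps, each called. The signal of the TEM2 probe was low at day 0, at 17.78 and 25.72 in its 2 usable channels, so the size of its first change is uncertain. TOE1 (-1.04, though -0.74 and not called with normexp and loess) and TOE3 (-1.90) were called lower at day 2 over day 0, and SMZ (1.01) and TOE3 (1.16) higher at day 8 over day 4. Of the TFL1 relatives, ATC and BFT were tested and not called in any step (adjusted p between 0.27 and 0.81), and both had channels that were not well above background at every time.

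**Figure D4:**
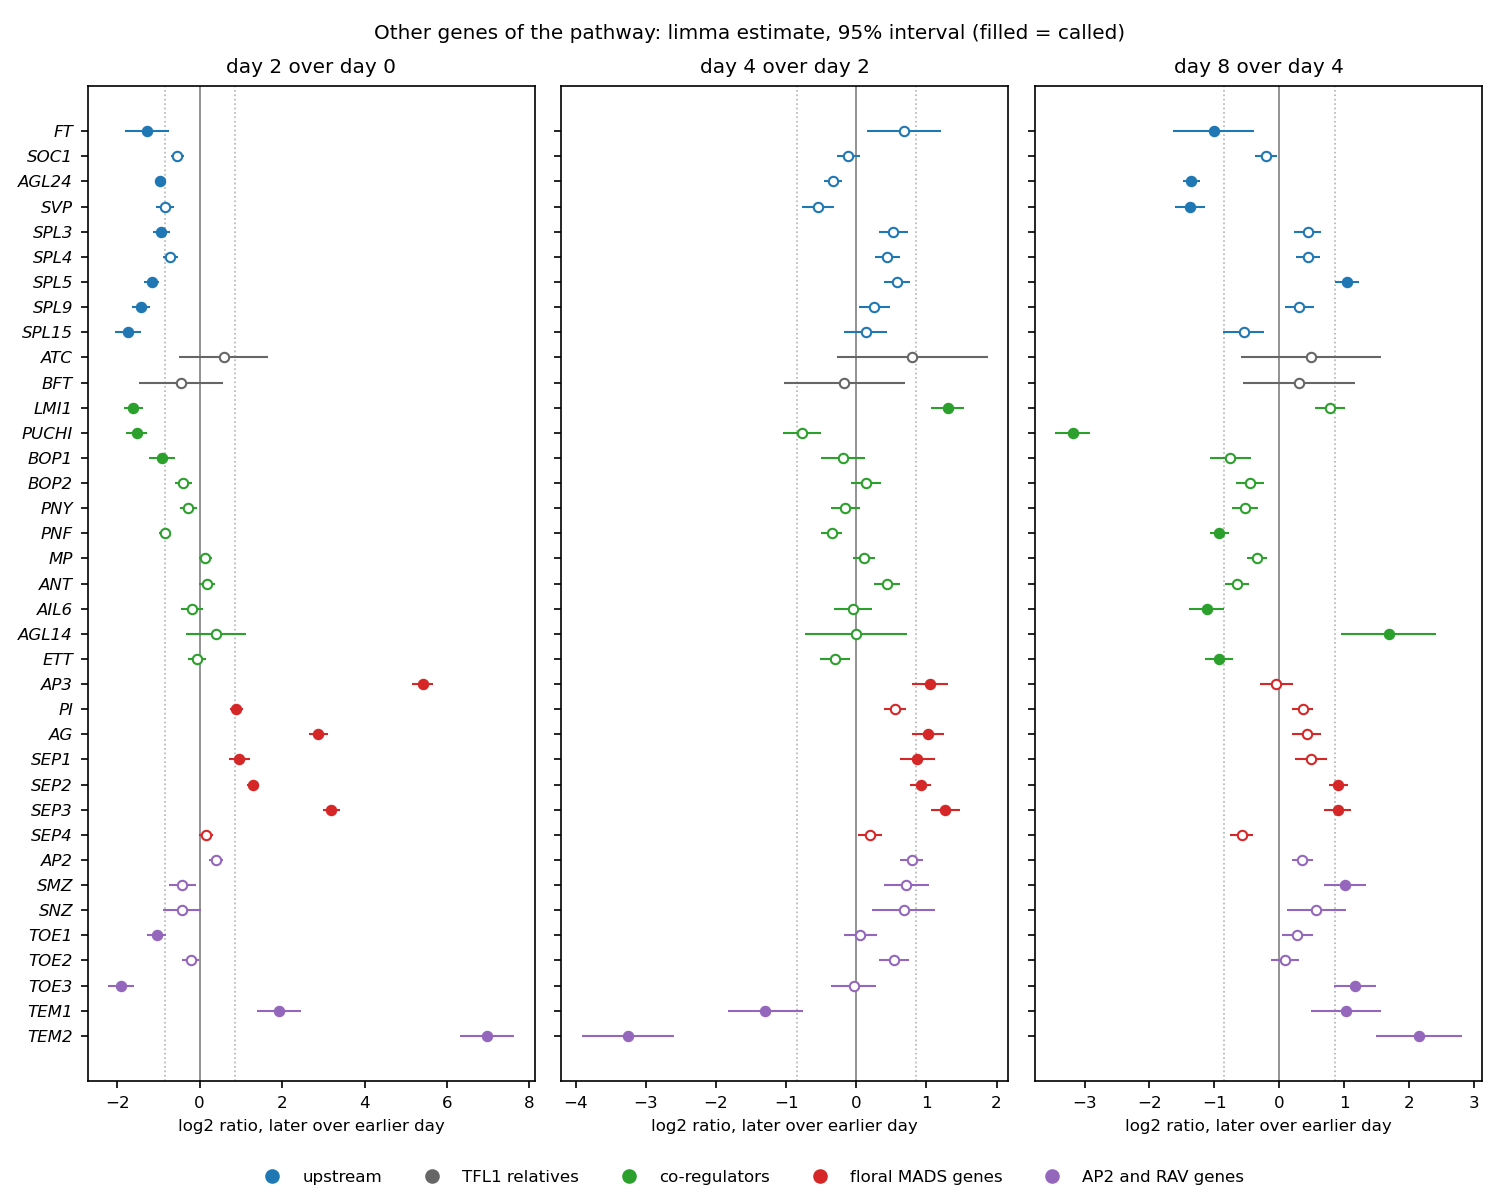
The limma estimate of the log2 ratio with its 95% interval for 37 further pathway genes at each of the 3 steps, coloured by group, with filled points for called genes, dotted lines at a change of 1.8-fold and horizontal axes that differ between the panels. The floral MADS genes lie to the right of 0 at day 2 over day 0, up to 5.41 for AP3, and all 9 upstream genes lie to the left of it.

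Meristem genes also fell in the last interval. All 5 of the list (STM, KNAT1, WUS, CLV3 and CLV1) were below 0 at day 8 over day 4, 3 of them called lower: STM (-1.05), CLV3 (-2.17, though -0.59 and not called with normexp and loess) and CLV1 (-1.13). None of the 5 was called at day 2 over day 0, when LFY rose and FD fell. At day 4 over day 2, where 7 of the 9 genes had estimates above 0, all 5 meristem genes were below 0. None of the 5 was called there, and their median was -0.58 against 0.06 over all genes. Their summed signal was 71040 to 95320 at day 0, 52310 to 93210 at day 2, 55860 to 77070 at day 4 and 29320 to 41630 at day 8, and no marker was at background throughout. The share of meristem tissue in the decreases of CAL, LFY, UFO, FD and FDP was not tested. Of 3 touch-response genes, TCH3 (4.00) and TCH4 (2.48, not called with normexp and loess) were called higher at day 2 over day 0, and lower (-2.84 and -1.86) at day 4 over day 2, and both were called higher again at day 8 over day 4 (1.503 and 1.91), the interval of the 5 decreases. TCH2 was not called in any step, but it was below 0 at day 2 over day 0, opposite to TCH3 and TCH4. Its median processed signal went from 15050 at day 0 (2 usable channels) to 6836 at day 2 (6). With normexp and loess on the 10 matching files it was called lower there. The part of handling in the changes of the 9 genes was not tested. Among 3 photosynthesis genes none was called in a step. Of 2 root genes WOX5 was tested and was called higher at day 4 over day 2 and at day 8 over day 4 (1.70 and 2.75). Of 3 tapetum genes AMS was tested and was called higher at day 8 over day 4 (2.135), but not with normexp and loess (0.46). The AMS probe was well above background in no channel of days 0 and 2, in 1 of 8 at day 4 and in 2 of 4 at day 8.

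For each gene called in a step, the genes whose ratios had the highest Pearson's r with it over the 12 arrays were found. They were taken from 5358 genes called in a step. This is a description that mostly reflects the differences between the steps, and r takes no account of the level of the ratios. LFY was closest to IAA31, a member of the auxin response repressor family (Pearson's r = 0.984), and to the zinc finger gene WIP4 (r = 0.979), which gave 1.01, -0.44 and -1.99 over the 3 steps. FD was closest to AT5G20640 (r = 0.968) and TEL2 (r = 0.954). TEL2 gave -1.79, -0.04 and -1.75 over the 3 steps. AT5G20640 was above 0 at day 4 over day 2 (0.65), where FD was below it (-0.44). CAL was closest to AT1G15760 (r = 0.982) and TRM31 (r = 0.976). Both were above 0 at day 4 over day 2 (1.03 and 0.27), where CAL was at -0.15. FDP was closest to AT3G17460 (r = 0.9805) and AT4G38660 (r = 0.973). For UFO, over its 11 arrays, they were AT1G58310 (r = 0.954) and RDR2 (r = 0.9503), an RNA-dependent RNA polymerase gene.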

How the data were processed

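Log10 ratios (Cy5 over Cy3), as the authors deposited them for each array, were the values tested. Feature Extraction 10.5.1.1 had subtracted background and normalised dyes, as the deposited scanner files state, and these files also give intensities of both channels with quality marks. Probes were designed by the authors on TAIR8 gene models; a TAIR10.1 table held 99.3% of the loci. Each ratio was set as later over earlier day and expressed as log2. For 10 of 12 arrays the scanner file matched the deposited ratios. For replicates 3 and 4 of day 2 over day 0 only 16.3% and 20.2% of probes were equal within 0.0001, and the marks of these 2 files were not used. Probes well above background in 50% of the channels of at least 1 day were kept (28248), and 693 outlier spots were left out. The limma fit (version 3.58.1, R 4.3.3) had a coefficient per step and a dye term (8 residual degrees of freedom), with net changes as sums of steps. Neighbouring steps share an extract, which the fit ignores. The limma standard errors and p-values rest on the residual spread of all 12 arrays after the dye term, moderated over all probes. They do not measure the spread of the 4 sets of a single step, and n = 4 beside a standard error counts the arrays of that step. Before normexp (offset 50), an alternative, background-subtracted signals below the 0.1 percentile of an array were set to it. The number of arrays limits the precision. A gene is read by its brightest probe. Named are the 9 genes, pathway genes called in a step, and the 2 genes with the highest Pearson's r to each called gene. The members and all lists were chosen with earlier results of these data known.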

Additional observations from a re-analysis of the deposited data

Results flagged for a closer look

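Among 42 sets of 4 values examined, 3 held a value that stood far from the others, and chance flags about 1 in 20 such sets. For AP1, set 2 was at -0.061 at day 4 over day 0, while the other sets lay between 0.56 and 0.66. For FUL, set 4 was at -0.35 at day 4 over day 2, against 0.15 to 0.23 in the others. For TFL1, set 3 was at -0.26 at day 4 over day 2, against 0.29 to 0.39 in the others. A difference between intervals was flagged for LFY and AP1, whose 4 sets were all higher at day 2 over day 0 and all lower at day 8 over day 4. The difference of day 8 over day 4 minus day 2 over day 0 was -2.09 for LFY and -0.65 for AP1, as tested above.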

How the results depend on the processing

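Of 213 values of called changes under the alternatives, 199 stayed called in the same direction and 14 did not. With normexp and loess on the 10 matching files, 1504, 1086, 2305, 936 and 3483 genes were called in the 3 steps, day 4 over day 0 and day 8 over day 0 (against 3049, 1912, 3821, 2228 and 5728), here and below by at least 1 called probe and not by the brightest probe alone, and with all 12 files 642, 1023, 2271, 11 and 2836; there none of the 9 genes was called at day 2 over day 0 (0 genes) or day 4 over day 0 (0 genes). Changes that were not called turned sign: with the 10 files UFO at day 2 over day 0 (0.071) and day 4 over day 0 (0.15) and TFL1 at day 8 over day 4 (0.036); with the 12 files AP1 (-0.037) and FUL (-0.055) at day 2 over day 0, FUL (-0.033) and UFO (0.062) at day 4 over day 0, AP1 at day 8 over day 0 (-0.22) and TFL1 at day 8 over day 4 (0.036); with array medians at 0, LFY at day 4 over day 2 (-0.0099), TFL1 at day 8 over day 4 (0.064), UFO at day 4 over day 0 (0.055) and LFY at day 8 over day 0 (0.087); within slide 2, LFY at day 4 over day 2 (-0.10) and TFL1 at day 8 over day 4 (0.070); within slide 3, FUL at day 4 over day 2 (-0.061); with the mean over probes, AP1 at day 8 over day 0 (-0.018); with steps summed per set, UFO at day 4 over day 0 (0.012). Leaving out each set in turn gave -0.12 to 0.039 for LFY and -0.044 to 0.27 for AP1 at day 8 over day 0, -0.064 to 0.12 for FUL and -0.072 to 0.17 for LFY at day 4 over day 2, -0.041 to 0.20 for FUL and -0.11 to 0.091 for UFO at day 4 over day 0, and -0.11 to 0.10 for TFL1 at day 8 over day 4. The cause was not tested. Same-numbered arrays of different steps correlated at -0.13 to 0.22 in their deviations, and arrays with different numbers at -0.26 to 0.33. By the design neighbouring steps of a set share an extract, but these correlations do not show it. With the replicate block 3016, 1881 and 3801 genes and 2, 0 and 5 of the 9 genes were called in the 3 steps. At day 4 and day 8 over day 0 it called 2121 and 5633 genes and 3 and 4 of the 9 genes, and no call of the 9 genes changed. By their scanner files all arrays of day 2 over day 0 lay on 1 slide, but the files of sets 3 and 4 did not match the deposited ratios.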
